A study of Mus musculus with 6 samples.

Results

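The genes described here are 9 members of the CC chemokine system of the mouse kidney. They are the ligands Ccl2, Ccl7, Ccl12, Ccl8, Ccl3, Ccl4 and Ccl5, the CC receptor Ccr2 and the fractalkine receptor Cx3cr1. They were taken by gene symbol, 9 of the 33696 genes in the feature lists, and the set was chosen with earlier results of these data known. Single kidney cells were profiled by 10x Genomics 3′ RNA sequencing, with 1 library per mouse, in 3 Sham and 3 DOCA-salt male C57BL/6 mice. The mice were aged 8 to 10 weeks when purchased, before surgery. DOCA (deoxycorticosterone acetate) is a mineralocorticoid that, given with salt, is a standard model of hypertensive kidney injury. The DOCA-salt mice had their left kidney removed and, 1 week later, received a 50 mg DOCA pellet and 1% NaCl drinking water for 21 days. The Sham mice had sham surgery and normal water, so nephrectomy and DOCA-salt cannot be told apart.

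CC chemokines are small secreted proteins that attract leukocytes by binding G protein-coupled receptors. Ccl2, Ccl7 and Ccl12 are ligands of Ccr2, which classical monocytes use to leave the bone marrow and enter inflamed tissue, whereas Ccl3, Ccl4 and Ccl5 are inflammatory chemokines that attract monocytes, T cells and NK cells. Cx3cr1 binds the membrane-bound chemokine Cx3cl1 and is carried by patrolling monocytes and by resident kidney macrophages.

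The 6 files hold 11058 to 14449 barcodes and 93172739 to 137819127 unique molecular identifiers (UMIs, counts of captured RNA molecules) per mouse. Of the barcodes, 7701 to 9933 per mouse remained after quality filters and doublet removal. The 55630 cells formed 49 clusters, clustered without chemokine genes, which gave 18 named cell types, and 9066 cells (16.3%) stayed unnamed. One unnamed cluster of 614 cells held 604 cells of DOCA-salt mouse 2. Any pair of libraries shared 33 to 69 cell barcodes. Levels are given as UMIs per 1000000 UMIs of the same cells (CPM). The macrophage class held 419 Sham and 1788 DOCA-salt cells, and its marker list (10 of 10 markers detected, among them C1qa, C1qb, C1qc, Adgre1 and Csf1r) summed to 11689 to 13198 CPM in Sham and 13894 to 15214 CPM in DOCA-salt mice.

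All 7 ligand genes lie on chromosome 11 of GRCm39. Ccl2, Ccl7, Ccl12 and Ccl8 are in a block of 81.2 kb (bases 81926397 to 82007625), together with Ccl11. Ccl5, Ccl3 and Ccl4 are in a block of 139 kb (bases 83416602 to 83555509), together with Ccl9 and Ccl6, and 1.41 Mb separate the blocks. Ccr2 (bases 123901982 to 123913594, plus strand) and Cx3cr1 (bases 119877749 to 119898945, minus strand) are on chromosome 9. In the annotation, Ccl3, Ccl5 and Cx3cr1 each overlap 1 antisense long noncoding gene, and the other 6 members overlap none.

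Promoter sequences of 5 members (Ccl3, Ccl8, Ccl12, Ccr2 and Cx3cr1) were matched in RefSeq (GRCm38.p6), each running from 250 bases before the gene start to 50 after it. A member of each chromosome 11 block and of each direction of change in macrophages is shown, 5′ to 3′ on the gene's strand: Ccl3 at chr11:83649329-83649628 (minus strand), Ccl8 at chr11:82114935-82115234 (plus strand) and Ccl12 at chr11:82101595-82101894 (plus strand). Capitals mark the letters TATAAA, the core of a TATA box, and GAGGAA or its reverse complement TTCCTC, a core bound by ETS factors of myeloid cells.
Ccl3: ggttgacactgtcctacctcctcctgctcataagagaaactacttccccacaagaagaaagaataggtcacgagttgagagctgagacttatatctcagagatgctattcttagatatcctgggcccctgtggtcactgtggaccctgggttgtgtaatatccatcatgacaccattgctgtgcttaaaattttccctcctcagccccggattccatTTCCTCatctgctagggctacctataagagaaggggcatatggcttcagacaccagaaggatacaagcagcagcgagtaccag
Ccl8: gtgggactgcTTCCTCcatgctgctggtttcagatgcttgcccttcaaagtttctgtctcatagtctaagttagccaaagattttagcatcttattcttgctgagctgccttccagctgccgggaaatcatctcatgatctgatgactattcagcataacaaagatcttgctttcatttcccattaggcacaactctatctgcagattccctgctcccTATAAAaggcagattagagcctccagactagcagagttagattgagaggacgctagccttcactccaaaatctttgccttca
Ccl12: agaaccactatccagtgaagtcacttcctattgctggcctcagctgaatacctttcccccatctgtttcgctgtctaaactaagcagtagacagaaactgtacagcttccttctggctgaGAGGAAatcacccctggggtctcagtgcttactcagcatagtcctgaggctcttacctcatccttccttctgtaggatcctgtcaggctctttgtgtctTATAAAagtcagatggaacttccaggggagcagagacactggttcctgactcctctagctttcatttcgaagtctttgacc
TATAAA stood 32 bases before the start in Ccl8 and 31 bases before it in Ccl12, and had no match in Ccl3. On both strands, TATAAA was found in 13.6% and GAGGAA in 28.3% of all 32851 promoters of this length. A further pair of motifs was searched on both strands, the AP-1 core TGANTCA, present in 7.81% of all promoters, and the NF-kB site known as kappaB, present in 4.51%, and neither was found in the 5 windows. None of the 4 motifs matched in the Ccr2 or Cx3cr1 window.

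The first question was whether the members differed between whole DOCA-salt and Sham kidneys. In sums over all cells of a mouse, Ccl2, Ccl7, Ccl12, Ccl8, Ccl3, Ccr2 and Cx3cr1 were higher in DOCA-salt mice, and Ccl4 and Ccl5 did not pass the test. All 9 members passed the filter on low counts. By edgeR's quasi-likelihood test with Benjamini-Hochberg adjustment, 7 of 9 rose and 0 fell, where 17.2% of the 19665 genes tested were called, 11.5% higher and 5.69% lower. The members' median log2 change was 1.94, against -0.03 for all genes. In such sums, fewer cells of a type and less RNA per cell cannot be told apart, and the share of macrophages among the cells was 1.53% ± 0.148 (SD, n = 3) in Sham and 6.32% ± 1.36 (SD, n = 3) in DOCA-salt mice.

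Ccl2, Ccl7, Ccl12 and Ccl8, which share the first block of chromosome 11, showed the larger whole-kidney changes. Ccl2 (monocyte chemoattractant protein 1) was at 3.41, 6.12 and 4.47 CPM in Sham mice 1 to 3 and at 24.3, 31.0 and 56.2 CPM in DOCA-salt mice 1 to 3. Every DOCA-salt mouse was above every Sham mouse, and the log2 change was 2.87 ± 0.33 (SE, adjusted p = 0.00142). Ccl7, which attracts monocytes through Ccr2 and other receptors, was at 3.19, 3.26 and 2.20 CPM in Sham and 14.3, 35.5 and 38.2 CPM in DOCA-salt mice. The groups did not overlap, with DOCA-salt mouse 1 the lowest of its group, and the log2 change was 3.22 ± 0.35 (SE, adjusted p = 0.00119). Ccl12, a mouse Ccr2 ligand close to Ccl2 in sequence, was at 2.48, 3.28 and 2.63 CPM in Sham and 15.8, 31.4 and 40.4 CPM in DOCA-salt mice. Again no value overlapped (log2 change 3.26 ± 0.32, SE, adjusted p = 0.000746). Ccl8, which in the mouse is known as a ligand of Ccr8, was at 0.354, 1.13 and 0.123 CPM in Sham and 2.76, 12.0 and 9.80 CPM in DOCA-salt mice. Its Sham mean was the lowest of the 9 members, with Sham mouse 3 just under the filter's level of 0.124 CPM, and the log2 change of 3.82 ± 0.73 (SE, adjusted p = 0.0105) lost its call without Sham mouse 1 (3.57, adjusted p = 0.0536).

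Ccl3, Ccl4 and Ccl5 changed less in whole kidneys. Ccl3 (macrophage inflammatory protein 1 alpha) was at 49.6, 50.5 and 57.7 CPM in Sham and 69.0, 106 and 113 CPM in DOCA-salt mice, without overlap. Its log2 change of 0.74 ± 0.17 (SE, adjusted p = 0.0206) did not pass without DOCA-salt mouse 2 (0.68, adjusted p = 0.0621), DOCA-salt mouse 3 (0.63, adjusted p = 0.0772) or Sham mouse 1 (0.70, adjusted p = 0.0834). Ccl4 (macrophage inflammatory protein 1 beta) was at 162, 228 and 185 CPM in Sham and 222, 266 and 403 CPM in DOCA-salt mice. Sham mouse 2 lay above DOCA-salt mouse 1, and the log2 change of 0.51 ± 0.21 (SE) did not pass (adjusted p = 0.145). Ccl5 (RANTES), made mainly by T and NK cells, was at 34.8, 18.4 and 31.5 CPM in Sham and 25.2, 36.2 and 38.6 CPM in DOCA-salt mice. The groups overlapped, and the log2 change was 0.11 ± 0.24 (SE, adjusted p = 0.796).

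Both receptors were higher. Ccr2 was at 1.88, 2.94 and 2.15 CPM in Sham and 6.88, 9.52 and 12.7 CPM in DOCA-salt mice, with no overlap and a log2 change of 1.94 ± 0.25 (SE, adjusted p = 0.00212). Cx3cr1 was at 6.80, 6.68 and 8.95 CPM in Sham and 13.7, 20.2 and 22.4 CPM in DOCA-salt mice. These groups were also apart, with a log2 change of 1.20 ± 0.20 (SE, adjusted p = 0.0057). In all, 7 members had every DOCA-salt mouse above every Sham mouse, as did 26.4% of all genes tested, and no member had every DOCA-salt mouse below, as did 9.6%.

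**Figure D1:**
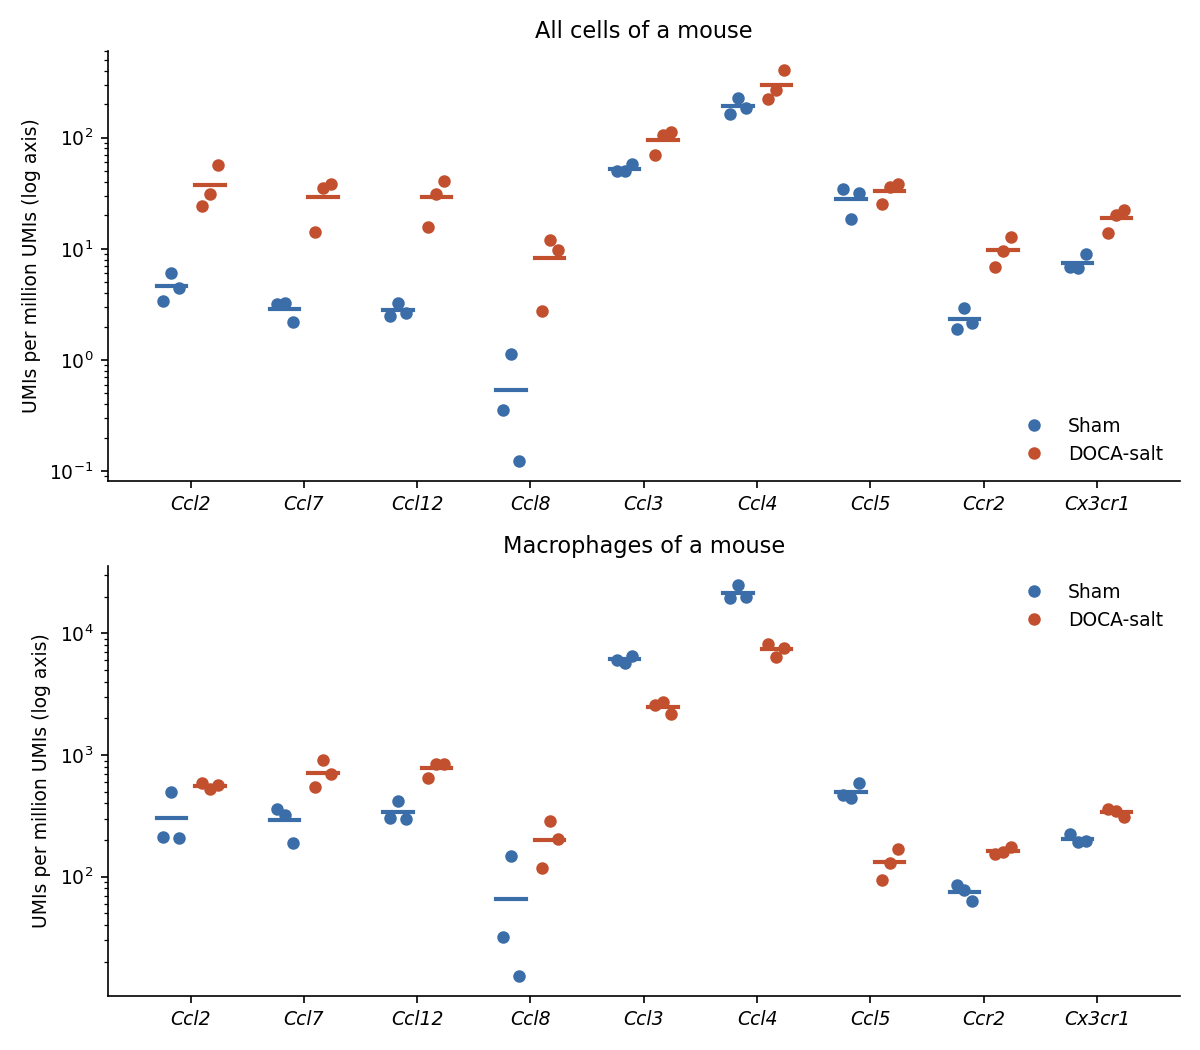
Level of each member in CPM (log axis), with 1 point per mouse and a line at the group mean, over all cells (top) and over macrophages (bottom). Over all cells 7 members had no overlap and were higher in DOCA-salt mice, while in macrophages Ccl3, Ccl4 and Ccl5 were lower in all 3 DOCA-salt mice.

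With macrophages left out of the sums, 6 of the 7 calls held, where 9.95% of all genes were called higher and 4.58% lower. The log2 changes were then 2.90 for Ccl2, 2.67 for Ccl7, 3.32 for Ccl12, 4.12 for Ccl8, 1.09 for Ccl3 and 1.18 for Ccr2. Cx3cr1 was at 0.29 (adjusted p = 0.383) in these sums and no longer passed. Leaving out macrophages does not leave out free RNA, that is, macrophage RNA captured with other cells. Over the 6 mice, proximal tubule was at 0.564 CPM for Ccl12, 0.182 CPM for Ccl8 and 2.84 CPM for Ccl3. Macrophages were at 557, 134 and 4297.5 CPM for the same members. The part of free RNA in the calls made without macrophages was not tested. The sums still held 3 small unnamed clusters with C1qa, C1qb or C1qc among their leading genes, of 28 Sham and 98 DOCA-salt cells in all. Without these as well, a setting chosen after the data were seen, the same 6 members passed (9.31% of all genes called higher and 4.57% lower), and Ccl8 was at 3.07 (adjusted p = 0.0454), Ccl3 at 0.91 (adjusted p = 0.0166) and Ccr2 at 1.01 (adjusted p = 0.0313).

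Cell types differed in which of the members' UMIs they held. Of all Ccl12 UMIs, macrophages held 91.7% in Sham and 91.8% in DOCA-salt mice. They also held 88.5% and 86.02% of Ccl3, 85.2% and 82.9% of Ccl4, 76.9% and 84.7% of Ccl7, and 88.9% and 86.3% of Ccl8. For these 5 ligands macrophages were thus the main holder in both groups, although they were 1.52% of Sham and 6.36% of DOCA-salt cells.

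Ccl2 was spread more widely. Its macrophage share was 49.4% in Sham and 51.4% in DOCA-salt mice, and an unnamed cluster led by C3, Cp and Ncam1, with Vcam1 and Wt1 among its leading genes (cluster 4), held 27% and 32.9%. Dendritic cells held 15.6% of Ccl2 UMIs in Sham and 2.03% in DOCA-salt mice. Fibroblasts, the collagen-producing cells of the interstitium, held 4.32% in DOCA-salt mice.

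Ccl5 UMIs lay in lymphocytes. T cells had 47% of them in Sham and 50.5% in DOCA-salt mice, NK cells 28.7% and 6.52%, dendritic cells 3.29% and 13.6%, and macrophages 13.02% and 13.5%. The receptors had several holders in Sham kidneys. Ccr2 UMIs were in dendritic cells (36.9%), macrophages (25.1%), T cells (17.1%) and monocytes (10.2%) there, and in DOCA-salt kidneys macrophages held 56.7% and dendritic cells 21.7%. Cx3cr1 UMIs were in endothelial cells (24.8%), macrophages (21.1%), thin limb (14.3%) and proximal tubule (11.4%) in Sham, and macrophages held 59.2% in DOCA-salt mice.

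**Figure D2:**
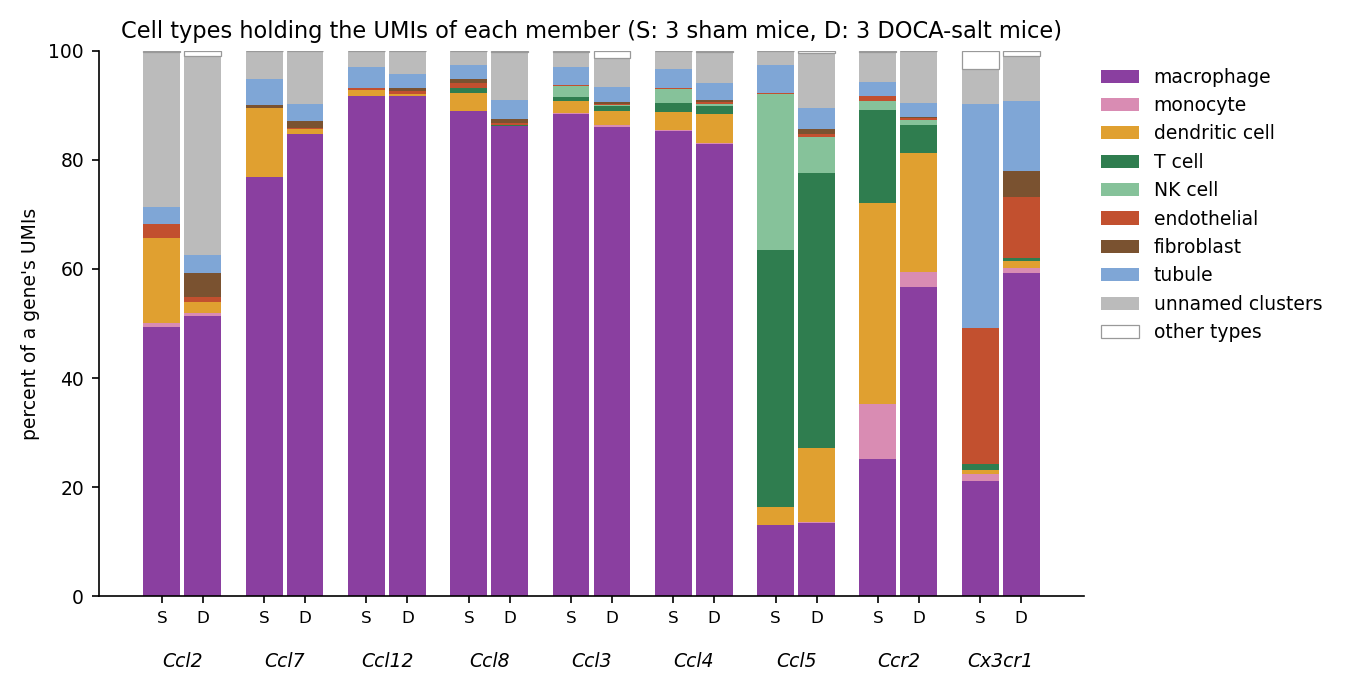
Percent of each member's UMIs held by each cell type, summed over the 3 Sham (S) and the 3 DOCA-salt (D) mice. Macrophages hold most UMIs of Ccl7, Ccl12, Ccl8, Ccl3 and Ccl4 in both groups, T cells lead for Ccl5, and the macrophage share of Ccr2 is 25.1% in Sham and 56.7% in DOCA-salt mice.

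Among the cell types ranked here, the one with the highest level of a ligand was also the main holder of its UMIs. For the receptors, the first-ranked type was not the main holder in Sham mice. Over the 6 mice and 14 types with enough cells in each, macrophages ranked first for 7 members, T cells for Ccl5 and monocytes for Ccr2. Neutrophils, fibroblasts, urothelial cells, NK cells and the unnamed clusters were not ranked. NK cells had 6 to 9 cells per DOCA-salt mouse. Their Ccl5 was at 9530, 6707 and 9637 CPM in Sham mice, above the T cell level of the same mice (4409, 803 and 3219 CPM). For 8 of the 9 members the first type was above the second in 6 of 6 mice (exact two-sided sign-flip test of log2(CPM + 1), p = 0.03125, the smallest that 6 mice can give, adjusted p = 0.0352 over the 9 members). The order was taken from the same 6 mice, which set the direction, so the sign-flip p-values between ranked types are descriptions. Ccl12 was at 557 CPM in macrophages and 9.80 CPM in dendritic cells, the second type (log2 difference 6.45 ± 1.93, SD, n = 6). For Ccl5, T cells were at 2667 CPM and dendritic cells at 400 CPM, and dendritic cells did not differ from macrophages at 314 CPM beyond their spread (exact sign-flip test, p = 0.6875).

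Ccr2 was at 287 CPM in monocytes and 226 CPM in dendritic cells, with monocytes higher in 4 of 6 mice (exact sign-flip test, p = 0.1875). Dendritic cells were above macrophages, at 119 CPM, in 6 of 6 mice (exact sign-flip test, p = 0.03125), and macrophages did not differ from T cells at 77.0 CPM beyond the spread (p = 0.15625 by the same exact test). Below these 4 types, Ccr2 was at 0.575 CPM in the next, endothelial cells. For Cx3cr1 the order was macrophages at 271 CPM, monocytes at 152 CPM, endothelial cells at 35.1 CPM and thin limb at 22.8 CPM, each step down seen in 6 of 6 mice.

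The next question was whether members changed within macrophages. Here Ccl3, Ccl4 and Ccl5 were lower in DOCA-salt mice, and Ccl7, Ccl12, Ccr2 and Cx3cr1 were higher. Thus 4 of the 9 members rose and 3 fell, where 4.66% of the 8912 genes tested were called, 2.31% higher and 2.35% lower. All 9 members passed the filter on low counts, and the log2 median of all genes was -0.01.

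Ccl4 was at 19370, 24896 and 19964 CPM in Sham macrophages and at 8218, 6439 and 7579 CPM in DOCA-salt macrophages. No value overlapped, and Ccl4 fell by 1.66 ± 0.21 (SE) on the log2 scale (adjusted p = 0.000391). Ccl3 was at 6009, 5756 and 6527 CPM in Sham and 2583, 2733 and 2177 CPM in DOCA-salt macrophages. Both groups were tight, and the log2 change was -1.41 ± 0.18 (SE, adjusted p = 0.000425). Ccl5 was at 465, 440 and 586 CPM in Sham and 94.4, 131 and 169 CPM in DOCA-salt macrophages. This was the largest fall of the 3 (log2 change -2.04 ± 0.20, SE, adjusted p = 4.55e-05). T cell markers, which could bring in Ccl5, summed to 9.51 to 13.8 CPM in Sham and 9.42 to 13.04 CPM in DOCA-salt macrophages (6 of 7 markers detected), and NK cell markers to 0 and to 0 to 0.628 CPM (3 of 7 detected). The part of T and NK cell RNA in the change of Ccl5 was not tested.

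Ccl12 was at 301, 416 and 299 CPM in Sham and 643, 845 and 837 CPM in DOCA-salt macrophages. The groups were apart, with a log2 change of 1.08 ± 0.18 (SE, adjusted p = 0.00226). Ccl7 was at 363, 320 and 190 CPM in Sham and 544, 906 and 700 CPM in DOCA-salt macrophages, also without overlap (log2 change 1.18 ± 0.22, SE, adjusted p = 0.00542).

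Ccl2 and Ccl8 did not pass, and Sham mouse 2 moved both. Ccl2 was at 213, 495 and 207 CPM in Sham and 587, 530 and 564 CPM in DOCA-salt macrophages. Sham mouse 2 stood close to the DOCA-salt values, and the log2 change of 0.76 ± 0.25 (SE) did not pass (adjusted p = 0.104). Without Sham mouse 2 it was 1.32 (adjusted p = 6.53e-05). Ccl8 was at 31.7, 148 and 15.2 CPM in Sham and 117, 286 and 203 CPM in DOCA-salt macrophages, with Sham mouse 2 above DOCA-salt mouse 1. The log2 change was 1.58 ± 0.47 (SE, adjusted p = 0.0734), and 2.98 without Sham mouse 2 (adjusted p = 0.000123). Of 15 other settings Ccl8 was called in 5, and of 16 Ccl2 in 2. Ccl8 in Sham macrophages rested on single cells, since 99 of its 104 UMIs came from 1 cell in each mouse (20 of 21, 73 of 75 and 6 of 8 UMIs) and 8 cells held any. In DOCA-salt mice 249 macrophages held 1892 Ccl8 UMIs.

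Ccr2 was at 84.6, 77.0 and 62.8 CPM in Sham and 153, 160 and 174 CPM in DOCA-salt macrophages. No mouse of one group reached the other, and the log2 change was 0.99 ± 0.16 (SE, adjusted p = 0.00221). Monocyte markers (8 of 8 detected) summed to 43.8 to 79.9 CPM in Sham and 125 to 154 CPM in DOCA-salt macrophages, and their part in the changes of Ccr2, Ccl12, Ccl7 and Cx3cr1 was not tested. Cx3cr1 was at 224, 191 and 196 CPM in Sham and 358, 344 and 311 CPM in DOCA-salt macrophages. It too showed no overlap, with a smaller log2 change of 0.60 ± 0.15 (SE, adjusted p = 0.0298). This call was lost without DOCA-salt mouse 1 (0.59, adjusted p = 0.0863), DOCA-salt mouse 2 (0.61, adjusted p = 0.0629), Sham mouse 1 (0.68, adjusted p = 0.0847) or Sham mouse 3 (0.61, adjusted p = 0.0891).

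In summed macrophage levels, 5 members had all DOCA-salt mice above all Sham mice and 3 had all below, as did 17.1% and 7.06% of the genes tested. Ccl8 alone of the 9 overlapped.

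**Figure D3:**
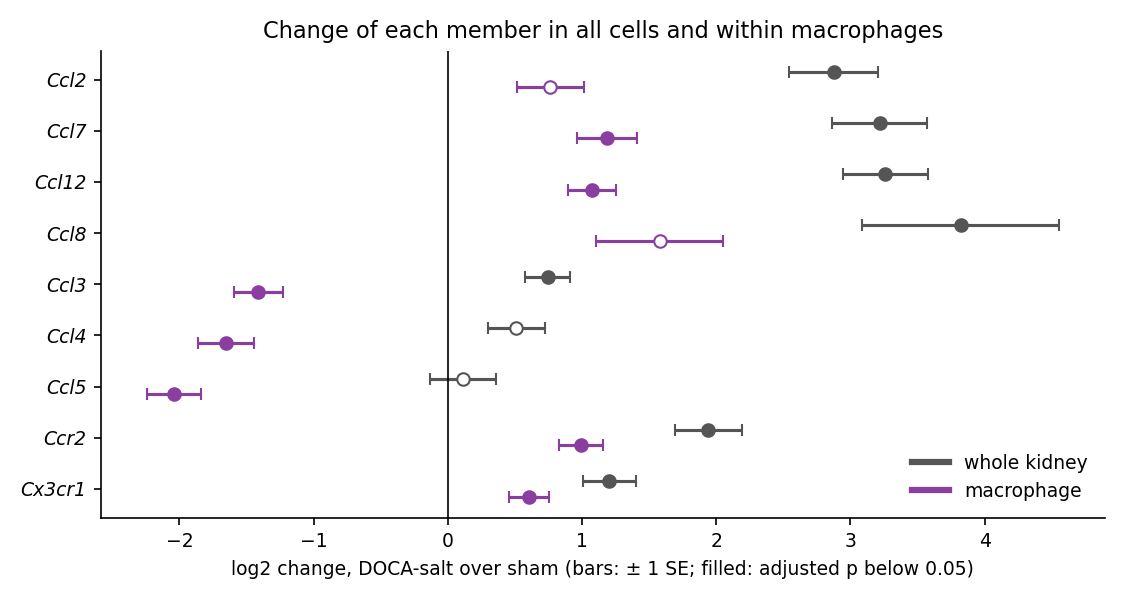
Log2 change of each member, DOCA-salt over Sham, in sums over all cells (grey) and over macrophages (purple), with bars of 1 SE on each side and filled points where the adjusted p was below 0.05. Ccl3, Ccl4 and Ccl5 lie left of 0 in macrophages only, at -1.41, -1.66 and -2.04.

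Different clusters made up the macrophages of the groups. Cluster 25, led by Il1b, Cd74 and Cd86, held 73.9%, 76.0% and 81.8% of the macrophages of the Sham mice and 9.95%, 4.10% and 8.63% of those of the DOCA-salt mice. In DOCA-salt mice the macrophages lay in cluster 42 (29.3% on average, led by C1qa and C1qb), cluster 30 (19.8%, led by Apoe, with Mrc1), cluster 32 (15.4%, with a median of only 759 UMIs per cell), cluster 47 (10.5%), cluster 29 (9.72%) and cluster 41 (7.71%, with Mmp12). These shares describe what was summed and are not a result, since Il1b itself differed between the groups.

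The clusters differed in the members they held, in CPM pooled over the 3 DOCA-salt mice and with no test. Cluster 25 was highest for Ccl4 (16179 CPM), Ccl3 (5285 CPM) and Ccl5 (396 CPM) and lowest for Ccl8 (16.8 CPM). Cluster 30 was highest for Ccl8 (608 CPM) and lowest for Ccr2 (24.4 CPM). Ccl7 was at 1360 CPM in cluster 47 and 1357 CPM in cluster 30. Cluster 47 was highest for Ccl12 (1449 CPM) and Ccl2 (1054 CPM), and cluster 29 for Ccr2 (256 CPM) and Cx3cr1 (558 CPM). The cluster highest for Ccr2 was thus not the one highest for Ccl2 or Ccl12 in these mice. In Sham mice the order differed, for example with Ccl12 at 80.4 CPM in cluster 47 and 808 CPM in cluster 30, and Ccl5 at 884 CPM in cluster 47 and 537 CPM in cluster 25, but clusters 47 and 30 held only 9 Sham cells each.

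Only cluster 25 had at least 10 cells in each mouse, and 2 members were called within it, where 0.466% of the 4073 genes tested were called higher and 0.638% lower. Ccl12 (log2 change 1.05, adjusted p = 0.0209) and Ccr2 (1.23, adjusted p = 0.0365) remained higher, and no member was called lower. Ccl4 in cluster 25 was at 22238, 31655 and 22746 CPM in Sham and 19928, 14747 and 14495 CPM in DOCA-salt mice, still without overlap, with a log2 change of -0.61 (adjusted p = 0.442). Ccl3 in it was at 7070, 7412 and 7448 CPM in Sham and 6758, 5905 and 4049 CPM in DOCA-salt mice (log2 change -0.36, adjusted p = 0.668), and Ccl5 changed by -0.54 (adjusted p = 0.485). Ccl7 was at a log2 change of -0.01 (adjusted p = 0.998), and Ccl8 had too few counts for a test. The falls of Ccl3, Ccl4 and Ccl5 over all macrophages were therefore not called among the cells of 1 cluster, of which 130 came from DOCA-salt mice.

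**Figure D4:**
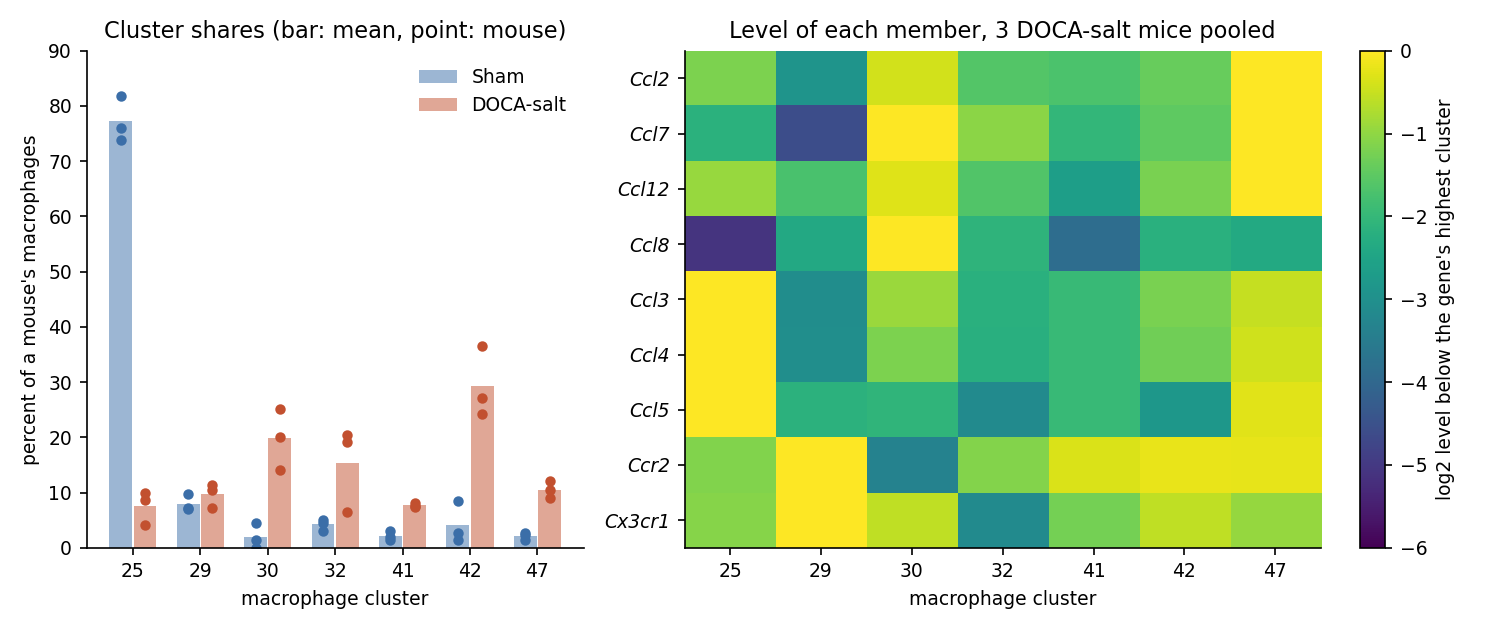
Left, percent of each mouse's macrophages in each macrophage cluster (bars are means, points are mice). Right, level of each member per cluster in CPM pooled over the 3 DOCA-salt mice, as log2 below the cluster where that member is highest (log2 scale), so that cluster 25 is brightest for Ccl3, Ccl4 and Ccl5 and clusters 30 and 47 for Ccl2, Ccl7 and Ccl12.

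Shares of macrophages with a UMI of each member gave the same directions as the sums. Cells were thinned to 1000 UMIs, which left 400 Sham and 1551 DOCA-salt macrophages (19 and 237 were shallower, and the medians before thinning were 3863 and 4541 UMIs). The exact permutation test of 3 against 3 mice cannot give p below 0.1, which 8 of the 9 members reached, 5 with the higher and 3 with the lower shares in every DOCA-salt mouse, as did 17% and 6.5% of the genes tested. The shares of Ccl3 were 83.9% ± 2.43 (SD, n = 3) in Sham and 63.8% ± 3.29 in DOCA-salt mice, those of Ccl4 were 93.7% ± 0.517 and 81.2% ± 1.14, and those of Ccl5 were 22.02% ± 3.61 and 7.57% ± 1.08. Without thinning, the shares were 88.4% and 73.4% for Ccl3, 94.3% and 84.03% for Ccl4, and 35.5% and 17.5% for Ccl5.

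Ccl12 was found in 19.4% ± 2.77 (SD, n = 3) of Sham and 33.4% ± 3.94 of DOCA-salt macrophages, Ccl2 in 16.5% ± 5.12 and 25.3% ± 0.653, and Ccl8 in 0.899% ± 0.223 and 7.05% ± 2.36. Without thinning these were 37.2% and 51.3% for Ccl12, 31.8% and 42.6% for Ccl2, and 1.94% and 13.6% for Ccl8. The receptors also reached p = 0.1 in the exact test, with Ccr2 in 5.75% ± 0.962 of Sham and 12.6% ± 1.56 of DOCA-salt macrophages (n = 3) and Cx3cr1 in 17.2% ± 1.85 and 26.6% ± 2.47. Ccl7 overlapped between the groups, at 13% ± 2.59 and 19.9% ± 4.5 (exact permutation test, p = 0.2, n = 3). Proximal tubule cells, which are not leukocytes, were taken for comparison, and free RNA itself was not measured. They had Ccl4 in 0.798% of Sham and 1.43% of DOCA-salt cells, Ccl2 in 0.0301% and 0.176%, and Ccl8 in 0.000809% and 0.0521% (median 9305.5 and 9340 UMIs). All macrophage shares lay above these values.

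**Figure D5:**
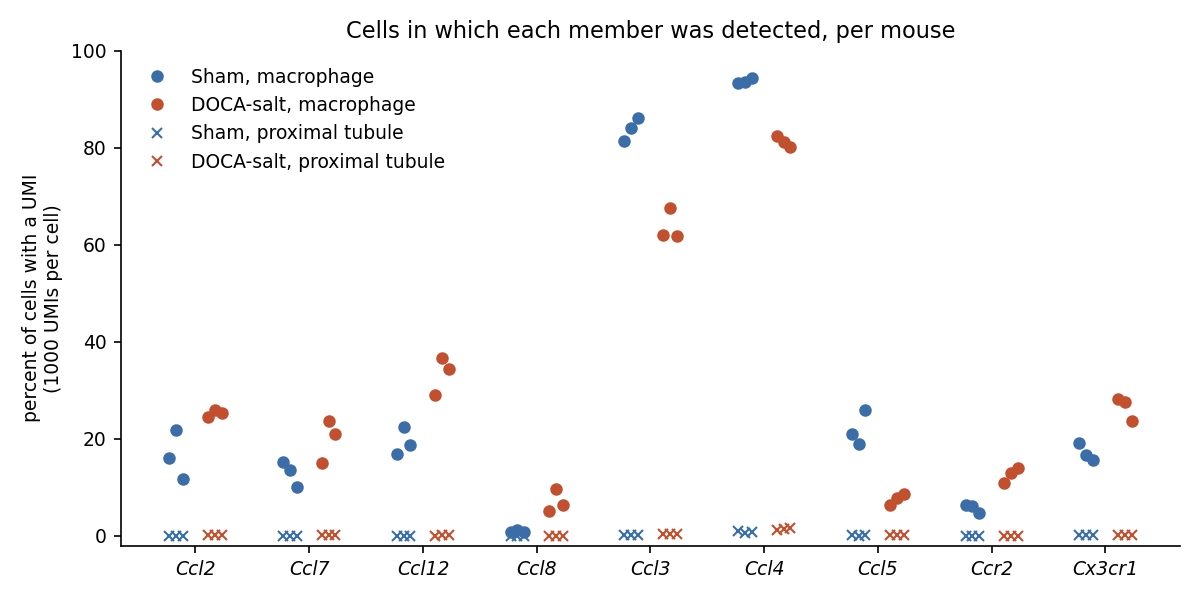
Percent of cells with at least 1 UMI of each member when each cell is thinned to 1000 UMIs, with 1 point per mouse for macrophages and 1 cross per mouse for proximal tubule cells. Macrophages of all 6 mice lie above the crosses for each member, at 93.7% (Sham) and 81.2% (DOCA-salt) for Ccl4.

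Ligands were counted together in single macrophages. Of the cells with Ccl3, 99.1% of Sham and 94.1% of DOCA-salt cells also had Ccl4, against 93.5% and 80.5% of all macrophages. Ccl12 was found in 30.2% of Ccl2-positive Sham and 52.2% of Ccl2-positive DOCA-salt macrophages, against 18.5% and 33.6% of all macrophages. Of the 100 Ccl8-positive DOCA-salt cells, 49% had Ccl12 and 8% had Ccr2, against 33.6% and 12% of all DOCA-salt macrophages. These values pool the cells of 3 mice, so they are descriptions.

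At this depth most macrophages had a UMI of neither receptor. Ccr2 alone was seen in 4.6% ± 3.38 (SD, n = 3) of Sham and 8.41% ± 0.555 of DOCA-salt macrophages, and Cx3cr1 alone in 14.3% ± 3.93 and 22.0% ± 1.34. Both were seen in 1.21% ± 0.732 and 3.35% ± 1.71. Neither was seen in 79.9% ± 7.99 of Sham and 66.3% ± 1.03 of DOCA-salt macrophages (exact permutation test, n = 3, p = 0.1, adjusted p = 0.2 over the 4 shares), and no share could pass at this size. Without thinning, both receptors were seen in 8.34% of Sham and 20.7% of DOCA-salt macrophages and Ccr2 alone in 7.83% and 8.22%, while Cx3cr1 alone was seen in 37.7% and 37.9% (difference 0.197, exact permutation test, n = 3, p = 0.9), so that these shares and their differences moved with depth.

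Outside macrophages, 51 pairs of a member and 1 of the other named types could be tested, of which 7 were called higher, 2 lower and 42 not. The filter's level was reached in every mouse for 26 of these pairs, in every DOCA-salt but not every Sham mouse for 13 (4 of the higher calls), and in every Sham but not every DOCA-salt mouse for 5 (1 of the lower calls). The share of all genes called was 0% in B cells, monocytes and neutrophils, 0.188% in dendritic cells, 0.743% in cycling cells, 0.756% in T cells and in thin limb, 1.55% in thick ascending limb, 8.66% in fibroblasts and 11% in endothelial cells. Of the higher calls, 5 were in proximal tubule, the most abundant cells of the kidney (7.09% of all genes called). There Ccl2 was at 0.171, 0.0911 and 0.245 CPM in Sham and 0.894, 1.36 and 2.18 CPM in DOCA-salt mice (log2 change 3.06 ± 0.44, SE, adjusted p = 0.00602). Every DOCA-salt value lay above every Sham value. Ccl7 (log2 change 2.87, adjusted p = 0.00668), Ccl12 (2.49, adjusted p = 0.012), Ccr2 (1.77, adjusted p = 0.0306) and Ccl4 (0.79, adjusted p = 0.021) were the others. Ccl2, Ccl7, Ccl12 and Ccr2 passed the filter through the DOCA-salt mice, since at most 1 Sham mouse reached its level of 0.224 CPM, so that the count of these calls is a description. Their UMIs in proximal tubule were 23 and 177 for Ccl2, 24 and 162 for Ccl7, 22 and 117 for Ccl12, and 13 and 42 for Ccr2 in Sham and DOCA-salt mice.

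These proximal tubule levels were low beside those of macrophages. They were 0.0553% and 0.264% of the macrophage level for Ccl2 in Sham and DOCA-salt mice, 0.121% and 0.207% for Ccr2, and at most 1.08% for any member. The macrophage share of cells rose together with them, and its part in the result through free RNA was not tested. Ccl4 was also higher in distal convoluted tubule (7.77 to 19.7 CPM, log2 change 1.19, adjusted p = 0.0228, 7.6% of genes called). It was higher too in intercalated cells (7.20 to 14.9 CPM, log2 change 1.09, adjusted p = 0.0485, 5.43% of genes called). Over the 6 mice Ccl4 was at 13.7 CPM in the former and 11.1 CPM in the latter. It was at 10.2 CPM in proximal tubule and 14411 CPM in macrophages, and the part of free RNA in both calls was not tested. Of genes that respond to dissociation, 9 of 21 rose and 1 fell in distal convoluted tubule, and 0 rose and 6 fell in intercalated cells. Of NF-kB induced genes, 5 of 12 rose and 1 fell in the former, and 0 of 12 rose and 3 fell in the latter. The part of these genes was not tested. Without doublet removal Ccl4 in intercalated cells was at -0.056 (adjusted p = 0.975). The calls of Ccl2 and Ccl7 in proximal tubule held without any one mouse. Both passed the filter through the DOCA-salt mice, so this too is a description. Ccl12 in proximal tubule did not pass without Sham mouse 1 (2.25, adjusted p = 0.0528) or DOCA-salt mouse 3 (2.28, adjusted p = 0.0552), and Ccr2 there not without any mouse but Sham mouse 2 (adjusted p = 0.0754 to 0.122). Ccl4 in proximal tubule did not pass without Sham mouse 3 (0.79, adjusted p = 0.0682) or DOCA-salt mouse 3 (0.65, adjusted p = 0.0919).

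Cx3cr1 was called lower in 2 other types. In smooth muscle cells or pericytes it was at 27.0, 25.6 and 34.3 CPM in Sham and 8.38, 7.46 and 11.1 CPM in DOCA-salt mice. These values rest on 48 and 16 UMIs in all, passed the filter through the Sham mice, do not overlap and gave a log2 change of -1.72 ± 0.39 (SE, adjusted p = 0.0204, 2.35% of genes called). Since no DOCA-salt mouse reached the filter's level, the call in these cells is a description. In connecting tubule or principal cells Cx3cr1 was at 11.5, 7.48 and 7.23 CPM in Sham and 5.02, 3.16 and 4.24 CPM in DOCA-salt mice. Here too the groups were apart, with a log2 change of -1.14 ± 0.30 (SE, adjusted p = 0.0254, 15.7% of genes called). Neither call held under each omission of 1 mouse, with adjusted p up to 0.159 without Sham mouse 3 in the former and up to 0.113 without Sham mouse 1 in the latter. In endothelial cells Cx3cr1 was at 40.3, 33.5 and 46.5 CPM in Sham and 25.5, 30.7 and 33.9 CPM in DOCA-salt mice, which did not pass (adjusted p = 0.13).

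The unnamed cluster 4, the second holder of Ccl2 UMIs, had 81 to 132 cells per Sham and 268 to 353 per DOCA-salt mouse, and its make-up differed between the groups. At Leiden resolution 2, a split chosen after the data were seen, it fell into a part led by C3, with Vcam1 and Havcr1, of 85 Sham and 706 DOCA-salt cells, and a part led by Ncam1, with Wt1, of 242 Sham and 166 DOCA-salt cells. Over the whole cluster, where 28.4% of genes were called, Ccl2 was at 104, 40.8 and 80.8 CPM in Sham and 118, 118 and 246 CPM in DOCA-salt mice (log2 change 1.26 ± 0.34, SE, adjusted p = 0.0147, and 0.80, adjusted p = 0.073, without DOCA-salt mouse 3). Cx3cr1 was called lower there (-1.78 ± 0.34, SE, adjusted p = 0.00204) and Ccl5 (2.07, adjusted p = 0.0208) and Ccl7 (2.06, adjusted p = 0.0404) higher, the last pair lost without 4 and 5 of the 6 mice in turn and with not every Sham mouse at the filter's level. Without Sham mouse 1 the change of Ccl7 was 5.22 (adjusted p = 0.000826).

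Each part was then summed on its own, and the difference between the parts was not tested. In the part led by C3 (3.07% of genes called higher and 5.43% lower), Ccl2 was at 494, 134 and 200.04 CPM in Sham and 112, 137 and 233 CPM in DOCA-salt mice, which overlapped, with a log2 change of -0.64 (adjusted p = 0.31). Ccl5 (1.88, adjusted p = 0.159) and Ccl7 (0.40, adjusted p = 0.835) were not called in it, and Cx3cr1 had too few counts for a test. In the part led by Ncam1 (1.47% of genes called higher and 1.47% lower), Ccl2 was at 2.63, 7.90 and 0 CPM in Sham and 161, 51.5 and 353 CPM in DOCA-salt mice. These groups were apart, on 10 Sham and 633 DOCA-salt UMIs, so that Ccl2 passed the filter through the DOCA-salt mice, with a log2 change of 5.56 (adjusted p = 0.00109). Ccl7 there was at 1.31, 0 and 1.21 CPM in Sham and 11.1, 25.7 and 24.2 CPM in DOCA-salt mice. It rested on 2 Sham and 72 DOCA-salt UMIs (4.52, adjusted p = 0.00185) and also passed the filter through the DOCA-salt mice. The calls of Ccl2 and Ccl7 in this part are thus descriptions. Cx3cr1 in it was at -0.73 (adjusted p = 0.43).

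Other differences in small populations were not called. In neutrophils Ccl3 was at 355 and 153 CPM in the 2 Sham mice with enough cells and at 5733 and 436 CPM in the 2 DOCA-salt mice (adjusted p = 0.682). In dendritic cells Ccl5 was at 112, 166 and 353 CPM in Sham and 795, 609 and 365 CPM in DOCA-salt mice, without overlap (log2 change 1.42, adjusted p = 0.253). Ccl2 in fibroblasts was at 0 CPM in Sham mice 1 and 3, with 23 and 10 cells, and at 20.04, 25.5 and 70.2 CPM in DOCA-salt mice, which did not pass (adjusted p = 0.143). In monocytes Ccr2 was at 251, 285 and 241 CPM in Sham and 200, 259 and 484 CPM in DOCA-salt mice, which overlapped (adjusted p = 0.98).

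The difference between the change in macrophages and that in another type was tested directly, in an edgeR model with mouse as a block. Of the 51 pairs in which the member passed the filter on low counts in the other type too, over 13 types, 35 were called, 7 with the higher and 28 with the lower change in macrophages, where the share of all genes called differed by type. It was 0.129% against neutrophils, 0.586% against monocytes, 1.31% against dendritic cells, 2.24% against T cells, 2.66% against smooth muscle or pericytes and 3.19% against fibroblasts. Against the other tubule and vessel types it was 3% (thin limb), 3.65% (thick ascending limb), 4.78% (intercalated cells), 5.38% (proximal tubule), 5.82% (distal convoluted tubule), 6.25% (endothelial cells) and 7.81% (connecting tubule or principal cells). Ccl3 had the lower change in macrophages against 9 of 10 types, Ccl4 against 11 of 12 and Ccl5 against 5 of 6. These counts are descriptions, since the other type's level entered many pairs through 1 group. In endothelial cells and tubule types other than proximal tubule, Ccl4 was at 8.51 to 13.7 CPM over the 6 mice and Ccl3 at 2.40 to 3.69 CPM. Proximal tubule was at 10.2 and 2.84 CPM. The part of free RNA in these differences was not tested. For Ccl3 the filter's level was reached in every mouse of both groups in 2 of the 9 pairs and in every DOCA-salt but not every Sham mouse in 5, whereas for Ccl4 it was reached in every mouse in 9 of the 11 and for Ccl5 in 3 of the 5. For Ccl5 the difference was -2.004 ± 0.33 (SE, adjusted p = 0.000407) against T cells and -3.51 ± 0.37 (SE, adjusted p = 5.95e-05) against dendritic cells.

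All calls of the receptors went the other way. Cx3cr1 had the higher change in macrophages against 4 of 10 types, among them endothelial cells (1.03 ± 0.17, SE, adjusted p = 1.98e-05). Smooth muscle or pericytes and intercalated cells were also among them. Cx3cr1 reached the filter's level there in 3 Sham mice each, but in 0 and 1 DOCA-salt mice, so this count is a description. Ccr2 had the higher change in macrophages against T cells (1.27 ± 0.29, SE, adjusted p = 0.0109). This call was lost without Sham mouse 1 (adjusted p = 0.148), Sham mouse 3 (adjusted p = 0.113) or DOCA-salt mouse 3 (adjusted p = 0.0849). The change of Ccl2 was higher in macrophages than in dendritic cells by 1.59 ± 0.26 (SE, adjusted p = 0.00359), where it was 0.76 in macrophages and -0.82 in dendritic cells, neither of them called. That of Ccl7 was higher by 2.53 ± 0.43 (SE, adjusted p = 0.00687), at 1.18 in macrophages and -1.33, not called, in dendritic cells. The latter was not called without Sham mouse 2 (2.12, adjusted p = 0.121). Against proximal tubule the fitted difference was -2.14 for Ccl2 (adjusted p = 1.62e-09), -1.62 for Ccl7 (adjusted p = 3.64e-05) and -1.32 for Ccl12 (adjusted p = 0.00441), but these members passed the filter there through the DOCA-salt mice. On the log2(CPM + 1) scale, which understates changes of low levels, the same differences were -0.06, 0.35 and 0.47 (exact permutation test of 3 against 3 mice, p = 0.9, 0.3 and 0.1), so that no direction is given for them.

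Other genes of the system are given as counts, to be read against the 11.5% of all genes called higher and 5.69% called lower in whole kidneys, and 2.31% and 2.35% in macrophages. Of the other CC ligands, 13 of 16 could be tested in whole kidneys, 7 rose and 0 fell, with a median log2 change of 2.43 against -0.03 for all genes. Among them were Ccl9 (2.57, adjusted p = 0.00102) and Ccl6 (2.43, adjusted p = 0.00126), ligands of Ccr1 made by myeloid cells. In macrophages, Ccl9 (log2 change 0.78, adjusted p = 0.00737) and Ccl6 (0.79, adjusted p = 0.0112) also rose. They lie in the same 139 kb of chromosome 11 as Ccl3, Ccl4 and Ccl5, which fell there.

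Of the other receptors, scavengers and the Cx3cr1 ligand, 11 of 15 could be tested in whole kidneys, 5 rose and 1 fell (median 1.14). Cx3cl1, the ligand of Cx3cr1, was at 18.9 ± 1.78 CPM in Sham and 45.5 ± 10.6 CPM (SD, n = 3) in DOCA-salt kidneys (log2 change 1.14, adjusted p = 0.00303). Of 18 genes of receptor signalling, 11 rose and 0 fell in whole kidneys (median 0.93), while in macrophages 1 of 17 rose, the phosphoinositide 3-kinase subunit Pik3r5 (0.93, adjusted p = 0.0203), and 0 fell (median 0.05).

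NF-kB induced early genes and genes that respond to tissue dissociation were counted beside the falls of Ccl3 and Ccl4 in macrophages, since the kidneys were digested with collagenase. Of 20 NF-kB genes in macrophages, 2 rose and 3 fell (median -0.12), where 2.31% of all genes tested were called higher and 2.35% lower. The 3 that fell were the cytokines Tnf (-1.34, adjusted p = 0.000236) and Il1b (-0.86, adjusted p = 0.00449) and the chemokine Cxcl10 (-1.17, adjusted p = 0.00117), and Il1a rose (1.57, adjusted p = 0.00824). Of 21 dissociation genes, 0 rose and 3 fell, all of them heat shock genes, namely Dnajb1 (-1.37, adjusted p = 0.00105), Hsp90aa1 (-0.77, adjusted p = 0.0143) and Hspa1a (-0.86, adjusted p = 0.0426), with a median of -0.32. Their part in the falls of Ccl3, Ccl4 and Ccl5 was not tested. In whole kidneys 12 of 20 NF-kB genes rose and 0 fell (median 0.79), and 1 of 21 dissociation genes rose and 0 fell (median -0.04). Of all genes tested there, 11.5% were called higher and 5.69% lower.

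The genes most like each member were found by Pearson's r of log2(CPM + 1) over 100 sums of a mouse and 1 of 18 cell types, as a description, since sums of 1 mouse share a library and sums of a type share an identity. Ccl3 and Ccl4 were close to each other (r = 0.90). Ccl4 was also close to Lcp2, an adaptor of leukocyte signalling (r = 0.88), Ccr2 to Padi2 and the leukocyte surface gene Cd48 (r = 0.91 and r = 0.90), and Ccl8 to Ccl12 (r = 0.86). Ccl7 was closest to the macrophage elastase Mmp12 (r = 0.89), Ccl2 to the vesicle traffic gene Rab7b (r = 0.88), and Ccl5 to Heatr9 (r = 0.89). Cx3cr1, found in leukocytes, endothelium and tubule, had the weakest best match, Mef2a (r = 0.76).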

How the data were processed

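Kidney cells of 3 Sham and 3 DOCA-salt mice were profiled by 10x Genomics 3′ RNA sequencing after collagenase digestion and red cell lysis. The authors deposited filtered gene-by-barcode matrices of UMI counts, 1 per mouse, not normalized and with replicates not pooled, made with Cell Ranger on GRCm39. The processing notes give version 9.0.0 and the file headers 8.0.1, and the annotation release is not given in the sources used here. The notes also name Seurat 4.0.0 and R 4.0.3. Groups were taken from the sample labels. The labels name no litter or batch, and p-values measure the spread between these samples.

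From the deposited counts, barcodes with at least 500 UMIs and 170 genes, at most 50% mitochondrial and at most 5% haemoglobin UMIs were kept (2282 to 3569 per mouse were over the mitochondrial limit). Doublets were removed in each library by the Scrublet score in scanpy 1.11.5, the highest-scoring 0.8% per 1000 barcodes (544 to 947 cells per mouse). Cells were clustered on 2000 variable genes without chemokine, chemokine receptor, mitochondrial and haemoglobin genes. The settings were 30 principal components, 15 neighbours and Leiden resolution 1 (igraph 0.11.9), without batch integration. Cells of the clusters best matched by immune markers were then clustered again on their own with the same settings. Clusters were named from fixed marker lists. UMIs were summed per mouse and type where a mouse had at least 10 cells.

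Sums were tested with edgeR 4.0.16 (quasi-likelihood F test, TMM factors, filterByExpr, R 4.3.3), and every adjusted p without another name is from this test, adjusted by Benjamini and Hochberg's method across each fit's genes, with a threshold of 0.05. Changes in macrophages and in another type were compared by an interaction term with mouse as a block, and counted where the member passed the filter in both types. Shares of cells were compared after thinning to 1000 UMIs with exact two-sided permutation tests over mice (scipy 1.17.1), where 3 against 3 cannot give p below 0.1, and orders of types with exact sign-flip tests. Shares of cell types were compared on cell counts with the same edgeR test. The scripts were tested on simulated data. The alternatives were DESeq2 1.42.0, other size factors, no filter, a limit of 20% mitochondrial UMIs, no doublet removal and cells taken by their own markers. Leiden resolution 2, only macrophage clusters with at least 10 cells in each mouse, and the replicate number as a block were others. All cells but macrophages were also summed (also without C1q-led unnamed clusters, added after seeing the data). Further settings were the parts of unnamed cluster 4 at resolution 2 (also added), other depths and pseudocounts, and leaving out each mouse.

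The 9 members were named in each comparison. They, the other gene lists and the tests were chosen with earlier results of these data known. Of each other list, at most 4 genes with the smallest p were named. Positions are from GENCODE vM39 on GRCm39, and promoters from RefSeq on GRCm38.p6. Depth is the UMI total per mouse given in the results, and counting limits cover counting error only. A single further gene of the other lists is counted but not reported here.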

Additional observations from a re-analysis of the deposited data

Results flagged for a closer look

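The values below are differences between the log2 change in macrophages and that in another named type, all from the edgeR interaction test, for immune and endothelial cells where the member passed the filter on low counts in both types and was called. A minus sign means the lower change in macrophages. Against T cells the difference was -2.10 for Ccl3, -1.61 for Ccl4, -2.004 for Ccl5 and 1.27 for Ccr2 (adjusted p = 0.0466, 0.00597, 0.000407 and 0.0109). The Ccl3 call was lost without Sham mouse 2 (adjusted p = 0.214), Sham mouse 3 (0.284) or DOCA-salt mouse 3 (0.427), and the Ccr2 call without Sham mouse 1 (0.148), Sham mouse 3 (0.113) or DOCA-salt mouse 3 (0.0849).

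Against dendritic cells the difference was 1.59 for Ccl2, -1.74 for Ccl3, -2.24 for Ccl4, -3.51 for Ccl5 and 2.53 for Ccl7 (adjusted p = 0.00359, 0.00291, 9.31e-05, 5.95e-05 and 0.00687), and the Ccl7 call was lost without Sham mouse 2 (2.12, adjusted p = 0.121). Against endothelial cells it was -2.64 for Ccl3, -2.46 for Ccl4 and 1.03 for Cx3cr1 (adjusted p = 5.33e-06, 2.04e-11 and 1.98e-05). Against monocytes, of which each mouse had 11 to 19 cells, it was -3.62 for Ccl3 and -2.19 for Ccl4 (adjusted p = 0.000203 and 0.0423), and the Ccl4 call was lost without Sham mouse 2 (0.243), Sham mouse 3 (0.155) or DOCA-salt mouse 2 (0.457). Against neutrophils, with 4 mice, it was -4.49 for Ccl3 and -3.09 for Ccl4 (adjusted p = 3.47e-09 and 0.00116). Ccl3 in neutrophils was at 355 and 153 CPM in 2 Sham mice and at 5733 and 436 CPM in 2 DOCA-salt mice, a change that was itself not called (adjusted p = 0.682), and no Sham mouse reached the filter's level. The exact permutation test gave p = 0.333 for Ccl3, the smallest that 2 against 2 mice allow, and 0.667 for Ccl4, whose groups overlapped. The groups also overlapped, on log2(CPM + 1), for Ccl3 against T cells (exact permutation test, p = 0.3), Ccl7 against dendritic cells (0.2) and Ccl4 against monocytes (0.4). Ccl3 reached the filter's level in T cells in 1 Sham and 3 DOCA-salt mice, and in endothelial cells and monocytes in 1 Sham and 2 DOCA-salt mice. Over the 6 mice, endothelial Ccl3 and Ccl4 were at 2.60 and 11.4 CPM. Proximal tubule was at 2.84 and 10.2 CPM. The part of free RNA in the endothelial differences was not tested. The other calls named here held with each mouse left out in turn, except that this was not run for neutrophils, where 2 mice per group had enough cells. The macrophages of the groups came from different clusters, as described above, and the part of that in the differences was not tested.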

How the results depend on the processing

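Of the counts over members, 65 values under alternatives stayed within 1.5 times the reported count or on its side of the threshold, 11 were lower and 1 was higher. Of the values of single members, 424 kept their direction and side, 76 lost the call, 7 gained it and 4 changed direction. In macrophages, 2 members were called in place of 7 with only cluster 25, the cluster with at least 10 cells in each mouse. Fewer cells were summed there, and the cause of the lost calls was not tested. Ccl7 was then at -0.0082 (adjusted p = 0.998). In the other cell types, 5 pairs in place of 9 were called with cells taken by their own markers and 36 with no filter on low counts. These pair counts are descriptions, since the share of all genes called under each setting is not given beside them. Ccl4 in intercalated cells was at -0.056 without doublet removal (adjusted p = 0.975), and Ccl2 in unnamed cluster 4 at -0.64 in its part led by C3 (adjusted p = 0.31), and the causes were not tested. Scaling by library sizes only moved all members up, for example Ccl5 in whole kidneys from 0.11 to 0.24 and Ccl4 in macrophages from -1.66 to -1.53, and turned no direction. The exact permutation test called 0 of the 51 differences between types, in a design where it cannot give p below 0.1.

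With 1 mouse left out at a time, the calls ranged from 5 to 7 in whole kidneys, 6 to 9 in macrophages, 4 to 13 in other types and 29 to 34 between types. The order of types then had 0 calls, since 5 mice cannot give p below 0.0625, and the shares of receptor-positive macrophages had 0 to 0. All these counts of calls are descriptions, since the share of all genes called without each mouse is not given beside them. Ccl5 in whole kidneys ranged from -0.13 to 0.29, negative without Sham mouse 2 (adjusted p = 0.584).

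Same-numbered mice did not vary together (correlations of deviations from the group means -0.01, -0.40 and -0.04 in whole kidneys), so the replicate numbers were not taken as pairs. With the replicate number as a block, 7 members were called in whole kidneys, 7 in macrophages and 4 pairs in other types. These counts too are descriptions, given without the share of all genes called under the block. In macrophages Cx3cr1 was lost under the block (adjusted p = 0.129) and Ccl8 gained (0.0176). The values of Ccl8 in Sham macrophages and of monocytes and neutrophils are limited by few UMIs or cells.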
